A study of Mus musculus with 5 samples.

Results

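Genes of the class I antigen processing pathway were followed in NIH3T3 mouse fibroblasts that overexpress human ERBB2 (HER-2/NEU), set against the untransfected NIH3T3 cells they derive from. The 10 genes are B2m, H2-Q10, H2-M3, Tap1, Psmb8, Psmb10, Psme1, Psme2, Calr and Canx. They were taken by name from the 9669 genes that the array annotation names on probes of a single gene, because cells with high ERBB2 are known for lowered class I presentation. They are carried by 12 of the 20205 probes. All 10 have a value on at least 1 array.

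Each of the 5 arrays bears spotted cDNA probes and was hybridised with cDNA of both cell lines in different dyes. Preparation A has 3 arrays (A1, A2 and A3) and preparation B has 2 (B1 and B2). The Erbb2 cDNA carried Cy3 on A1, A2 and B1, and Cy5 on A3 and B2. The transgene is driven by the cytomegalovirus promoter, both lines grew in one serum medium with penicillin and streptomycin, the control line carries no vector, and the labels do not say whether the transfected line is 1 clone or whether the preparations were separate cultures. P-values for the cell lines therefore reach no further than the spread between these preparations, which may be technical. For a single gene that spread is estimated largely from all features together. P-values for dye and preparation rest instead on the spread among the 5 arrays.

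Class I molecules show peptides of the cell's own proteins to CD8+ T cells. The proteasome cuts proteins into peptides, and its inducible subunits and the PA28 activator change which peptides result. TAP carries the peptides into the endoplasmic reticulum, where calnexin and calreticulin hold the heavy chain while it folds and binds beta-2-microglobulin. Interferons and NLRC5 are known inducers of most of these genes, whereas calreticulin and calnexin belong to the folding machinery of every cell.

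Every value below is the log2 of the Erbb2-transfected signal divided by the NIH3T3 signal, so a value below 0 means less RNA in the transfected cells. The direction is likely rather than settled, since the sources used here do not name the numerator dye and Cy5 over Cy3 was taken. With the other numerator every sign turns. A ratio within an array gives no level, so the genes cannot be ranked by expression, and a ratio does not tell lower RNA per cell from fewer expressing cells.

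H2-Q10, a class I heavy chain gene whose product is known as a secreted protein of mouse liver, was the member that changed. It was lower in Erbb2-transfected cells, at 46.4% of NIH3T3 cells (95% interval 34.0% to 63.2%). B2m, Psmb10 and Canx did not pass the test and lay between 85.0% and 86.4%. Calr, Tap1, Psme2 and H2-M3 had negative values wherever they were measured but lacked the values that the test needs. Psme1 had both signs, and Psmb8 had 1 value, near 0.

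The test used the mean of each preparation, with both dye orientations averaged first. A feature entered it only if each preparation had measured it in both orientations. That left 4892 features, 4 of them members: B2m, H2-Q10, Psmb10 and Canx. In limma, 1 of these 4 passed at an adjusted p under 0.05, in the lower direction, where 4.54% of all features tested were called lower, 2.25% higher and 6.79% in either direction. The median of the 4 was -0.23, against -0.02 over all features. In simulated data a change of 0.5 on the log2 scale was recovered in 15.9% of features and a change of 1 in 89.6%. The simulated noise was independent between arrays, with no dye effect and no part shared within a preparation, so recovery in the real data may differ. Changes smaller than 0.5 were not simulated.

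The sign could be read for more members than the test. Of the 9 members with 3 or more values, 5 were below 0 on each of their arrays and 0 were above 0 on each, while 14.3% of all features with 3 or more values were below 0 throughout. These 5 were H2-Q10, H2-M3, Tap1, Psme2 and Calr, of which Psme2 was measured with Erbb2 cDNA in Cy3 alone. Over members and arrays, 30 of 38 gene values were below 0 (78.9%). With Erbb2 cDNA in Cy3 these were 21 of 24 (87.5%), and with it in Cy5 9 of 14 (64.3%). Of the single member spots 36 of 44 (81.8%) were below 0, against 49.8% of all spots with a value. The 38 values come from 10 genes on shared arrays and are not independent.

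**Figure D1:**
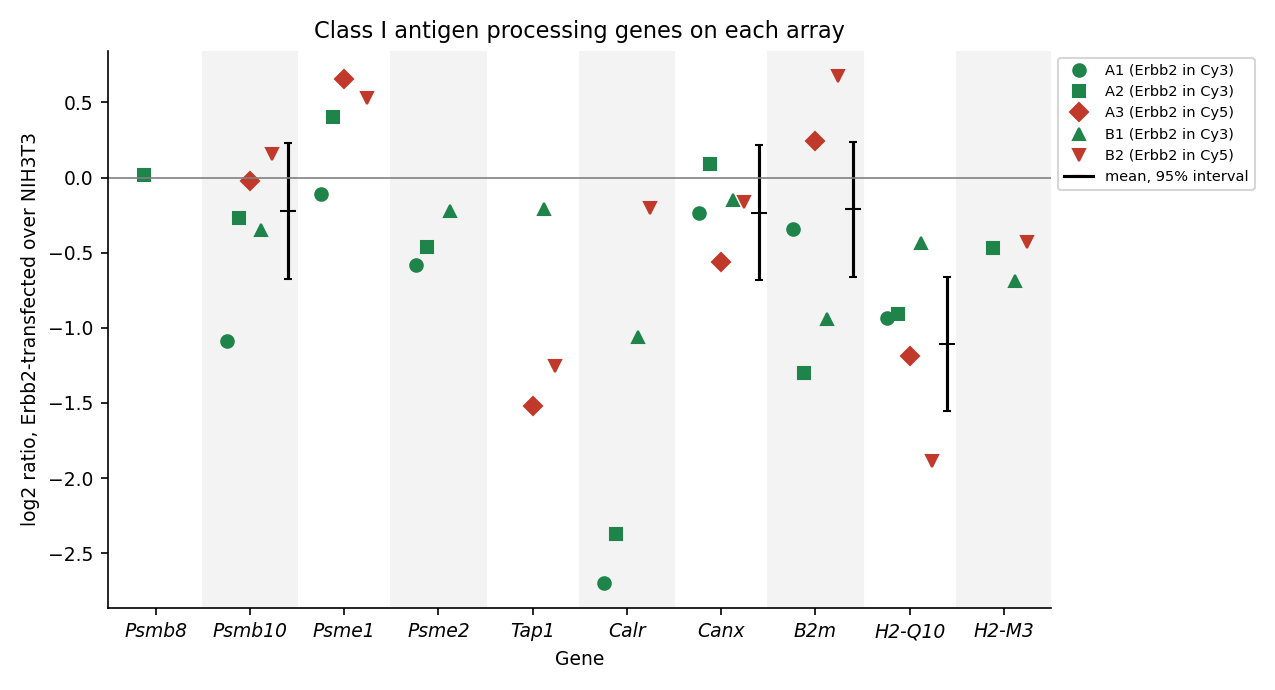
Log2 ratio of Erbb2-transfected over NIH3T3 cells (vertical axis) for the 10 genes (horizontal axis), 1 point per array with a value. Green points are arrays with Erbb2 cDNA in Cy3 and red points those in Cy5; black bars give the mean of the preparations with limma's 95% interval for the 4 tested genes. The interval of H2-Q10 alone lies below 0, and the green and red points of B2m lie on opposite sides of 0.

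Among the genes that make the peptides, Psmb10, an inducible catalytic subunit of the proteasome (MECL-1), read -1.09 (A1), -0.27 (A2), -0.03 (A3), -0.35 (B1) and 0.16 (B2). Array A1 was the lowest and the others lay close to 0. Its mean of -0.22 ± 0.18 (SD of 2 preparations) had an interval from -0.68 to 0.23 and did not pass (limma, adjusted p = 0.564). Psmb8, the inducible subunit LMP7, was measured by 1 spot on A2, at 0.01.

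Psme1 and Psme2 encode the alpha and beta subunits of PA28, which form 1 ring together. They lie close to each other, at chr14:55578494-55581527 and chr14:55587440-55591101 (GRCm38.p6). Psme1 read -0.11 (A1), 0.40 (A2), 0.65 (A3) and 0.53 (B2), so 3 of its 4 values were above 0. Psme2 read -0.58 (A1), -0.46 (A2) and -0.22 (B1), all below 0, as were 16.7% of features with 3 values in any mix of dyes. All 3 arrays carried Erbb2 cDNA in Cy3, so dye and cell line cannot be told apart for Psme2. On A1 and A2, where both genes were measured, Psme2 was the lower of the pair. Neither gene could enter the main test, and their plain means are not balanced for dye. In a plain mean over the arrays of each preparation Psme1 was at 0.42 (interval -0.12 to 0.96) and Psme2 at -0.37 (-0.92 to 0.18), with limma's adjusted p at 0.436 and 0.501.

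Tap1 encodes a subunit of the peptide transporter and lies at chr17:34187556-34197225, beside Psmb8 (chr17:34198195-34201454). It had -1.52 on A3 and -1.25 on B2, both with Erbb2 cDNA in Cy5, and -0.21 on B1, with Erbb2 cDNA in Cy3. The first 2 values lie among the lowest 2.50% and 4.38% of features on their arrays, whereas 30.4% of features were lower than Tap1 on B1. No value exists for A1 and A2, so the exchange of dyes can be compared in preparation B alone. In the plain mean Tap1 was at -1.12 (interval -1.72 to -0.53; limma, adjusted p = 0.0608), short of the threshold. That mean is not balanced for dye.

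Calr and Canx encode the chaperones calreticulin and calnexin, which bind newly made glycoproteins through the same kind of sugar. Their promoter windows are shown because both hold an endoplasmic reticulum stress element, the site through which folding stress is known to act on such genes, while their ratios differed. Calr lies at chr8:84842088-84846931 and Canx at chr11:50293957-50325673. The windows run from 250 bases before to 50 after the annotated gene start (RefSeq, GRCm38.p6, read 5′ to 3′ along the gene). Capitals mark every match, on either strand, to the stress element (CCAAT and CCACG with 9 bases between them), to CCAAT, which lies inside it, to the cAMP response half-site TGACG and to a pattern for NF-kB (GGGA and CC with 4 bases between them).
Calr, chr8:84846882-84847181, minus strand: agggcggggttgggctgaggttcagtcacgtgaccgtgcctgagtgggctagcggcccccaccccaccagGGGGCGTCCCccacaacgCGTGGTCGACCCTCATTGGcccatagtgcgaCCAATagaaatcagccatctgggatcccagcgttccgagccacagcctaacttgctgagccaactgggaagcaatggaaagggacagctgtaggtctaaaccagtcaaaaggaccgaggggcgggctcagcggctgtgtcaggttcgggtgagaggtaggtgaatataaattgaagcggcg
Canx, chr11:50325624-50325923, minus strand: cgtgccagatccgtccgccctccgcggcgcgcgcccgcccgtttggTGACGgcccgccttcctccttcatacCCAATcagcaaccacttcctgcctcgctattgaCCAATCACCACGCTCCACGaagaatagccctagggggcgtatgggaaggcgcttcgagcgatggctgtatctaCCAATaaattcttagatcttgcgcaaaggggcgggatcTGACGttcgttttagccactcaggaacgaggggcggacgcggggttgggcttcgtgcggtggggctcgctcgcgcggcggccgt

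The stress element was found in these 2 of the 10 genes and in 0.119% of all 32851 promoter windows in the table, while CCAAT was found in 37.4% and TGACG in 20.8%. A match in letters is a description and not a bound site.

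Calr read -2.69 (A1), -2.37 (A2), -1.06 (B1) and -0.20 (B2). All 4 values were below 0, as were those of 12.2% of features with 4 values, but they spanned more than those of any other member, and the preparation A arrays were the lowest. With Erbb2 cDNA in Cy3 throughout, A1 and A2 averaged -2.53 in preparation A against -1.06 in preparation B, and 1.33% of 9881 features with such values had a lower difference. The arrays were not scaled to equal spread, and the SD of their values was 0.85 (A1), 0.72 (A2) and 0.53 (B1). By rank Calr was low on all 3, as 0.672% of features were lower on A1, 0.487% on A2 and 1.71% on B1. On B2 37.6% were lower. Both A1 and A2 lay more than 1 below B1, as in 1.62% of features measured on these arrays. Within preparation B, where both orientations were measured, B2 with Erbb2 cDNA in Cy5 lay at -0.20 and B1 in Cy3 at -1.06. Preparation and dye thus both moved with the value, and their part in it was not tested, because A3 has no value. The part of the array spread was not tested either.

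In the plain mean Calr was at -1.58 (interval -2.40 to -0.76) and just missed the threshold (limma, adjusted p = 0.0566). When A3 was left out, so that preparation A needed only Cy3 values, the same mean passed (adjusted p = 0.0278). That mean is not balanced for dye in either fit. The preparation A mean of -2.53 lies outside the interval given, whose width comes largely from the spread of all features. Hspa5, which encodes the chaperone BiP and is no member, had -1.93 and -2.21 on A1 and A2 and -0.32 on B1. It was named because of its values. Ganab, from the same list of peptide loading genes, had 0.36, 0.40 and -0.06 on these arrays.

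Canx was covered by 3 probes. The first read -0.26 (A1), -0.05 (A2), -0.64 (A3), -0.30 (B1) and -0.22 (B2). The second read -0.21, 0.23, -0.48, -0.11 and -0.10 on the same arrays, and the third had -0.04 on B1 alone. Averaged to the gene, Canx was at -0.24 ± 0.11 (SD, n = 2), with an interval from -0.68 to 0.21, and did not pass (limma, adjusted p = 0.544). On A1 and A2, where Calr lay below -2, Canx had -0.23 and 0.09.

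**Figure D2:**
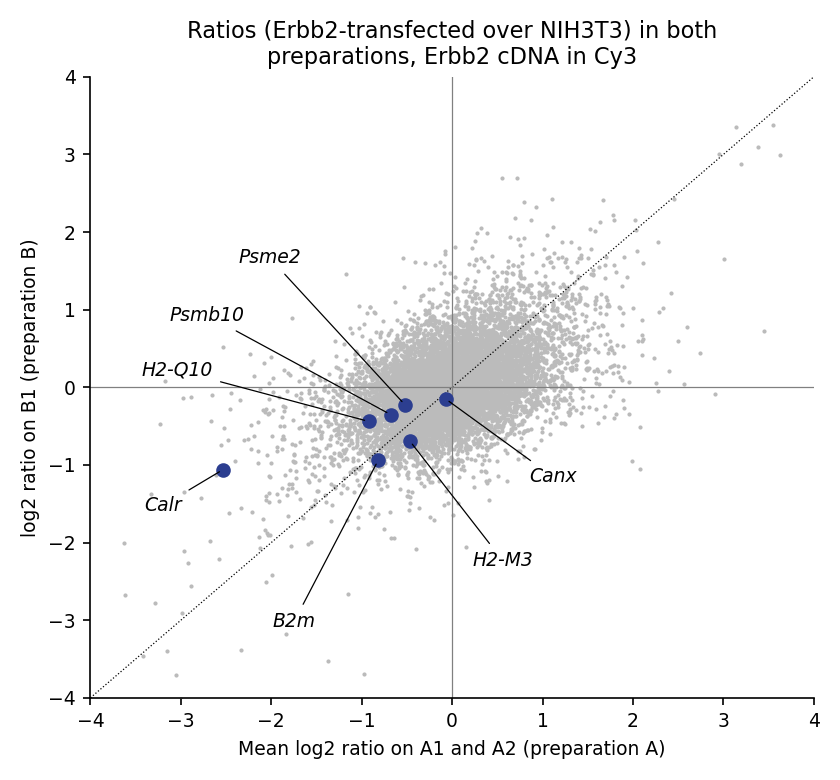
Log2 ratio of Erbb2-transfected over NIH3T3 cells in preparation A (horizontal axis, mean of A1 and A2 where measured) and in preparation B (vertical axis, B1), all with Erbb2 cDNA in Cy3. Grey points are 9861 features, 20 more lie outside the axes, and blue points are the 7 members with values; the dotted line marks equal ratios. Calr, at -2.53 in A and -1.06 in B, lies left of the other members.

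B2m and the heavy chain genes make the presented molecule itself. Promoter windows of B2m and H2-Q10 are shown because the values of the first lay on both sides of 0 and those of the second on one. The windows also differ in matches to the interferon and NF-kB patterns searched here. B2m lies at chr2:122147687-122153082, H2-Q10 at chr17:35470089-35474563 and H2-M3 at chr17:37270234-37274485. Beside the 4 patterns above, a pattern for the interferon-stimulated response element (ISRE), GAAA repeated with 2 bases between, was searched on both strands.
B2m, chr2:122147437-122147736, plus strand: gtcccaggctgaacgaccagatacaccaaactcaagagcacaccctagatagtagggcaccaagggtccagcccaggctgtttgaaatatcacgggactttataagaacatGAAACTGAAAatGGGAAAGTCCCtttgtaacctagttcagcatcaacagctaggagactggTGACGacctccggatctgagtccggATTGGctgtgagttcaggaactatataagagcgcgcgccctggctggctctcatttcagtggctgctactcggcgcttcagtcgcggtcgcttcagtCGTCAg
H2-Q10, chr17:35469839-35470138, plus strand: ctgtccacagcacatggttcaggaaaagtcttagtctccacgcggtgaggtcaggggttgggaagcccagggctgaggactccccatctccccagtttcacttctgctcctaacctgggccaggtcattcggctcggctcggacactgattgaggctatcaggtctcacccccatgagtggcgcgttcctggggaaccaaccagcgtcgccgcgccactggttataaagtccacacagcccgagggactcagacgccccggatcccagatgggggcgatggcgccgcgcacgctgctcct

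In B2m the ISRE pattern begins at position -139 from the gene start, and the NF-kB pattern, which matches on both strands at overlapping bases, at -127 and -126. None of the 5 patterns is in the H2-Q10 window, which says only that these letters are not in these 300 bases. Other interferon or NF-kB letters of class I promoters were not searched, so the window may hold them. The ISRE pattern was found in 2 of the 10 genes, B2m and Psme1, and in 3.44% of all windows, and the NF-kB pattern in 3 of the 10 (B2m, H2-M3 and Calr) and in 20.7%.

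B2m, the shared light chain, read 0.24 (A3) and 0.67 (B2) with Erbb2 cDNA in Cy5, and -0.34 (A1), -1.30 (A2) and -0.94 (B1) with it in Cy3. The sign followed the dye on all 5 arrays. The orientation means were 0.46 (Cy5) and -0.86 (Cy3), and 3.39% of features tested had a larger dye term. The term did not pass in limma over all features (adjusted p = 0.222), where 7 of 4892 features, or 0.143%, did. Balanced for dye, B2m was at -0.21 ± 0.11 (SD, n = 2) with an interval from -0.66 to 0.24 and was not called (adjusted p = 0.587).

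Without B1, which left preparation B with Erbb2 cDNA in Cy5 alone, the B2m mean was 0.19. Without B2, which left it with Cy3 alone, the mean was -0.62. Neither of these means is balanced for dye. With Erbb2 cDNA in Cy5, 66.6% of features were lower than B2m on A3 and 89.9% on B2. With it in Cy3, 30.4% were lower on A1, 3.67% on A2 and 2.50% on B1.

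H2-Q10 read -0.94 (A1), -0.91 (A2), -1.19 (A3), -0.44 (B1) and -1.89 (B2). All 5 values were below 0, as were those of 13.4% of features with 5 values, and those with Erbb2 cDNA in Cy5 (A3 and B2) were the lowest, at a mean of -1.54 against -0.76 in Cy3. The dye term of the gene did not pass (limma, adjusted p = 0.406). The preparation means were -1.06 (A) and -1.16 (B), which gave -1.11 ± 0.07 (SD, n = 2), with an interval from -1.56 to -0.66 and limma's adjusted p at 0.0085. Of the features tested, 2.33% had a lower mean. The call was lost without A3 (-1.04, adjusted p = 0.0546) and without B2 (-0.75, adjusted p = 0.121), which are the arrays with Erbb2 cDNA in Cy5.

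H2-Q10 is close in sequence to other class I heavy chain genes, and its probe is annotated by expressed sequence tags. The gene table of the annotation also lists H2-K1 among its synonyms. Which class I transcripts hybridised to the probe was not tested. H2-M3, a nonclassical heavy chain known to present formylated peptides, had -0.47 on A2 and -0.69 and -0.43 on B1 and B2. These values were close to each other in both orientations. Preparation A had none with Erbb2 cDNA in Cy5, so the plain mean is not balanced for dye. The plain mean was -0.51 (interval -1.05 to 0.03) and did not pass (limma, adjusted p = 0.329).

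Dye orientation was compared over the 4 members with 5 values. In 3 of them, the values with Erbb2 cDNA in Cy5 and in Cy3 did not overlap, and this held for 30.7% of features with 5 values (12.6% with Cy5 higher). The Cy5 values were higher for B2m and Psmb10 and lower for H2-Q10. Those of Canx overlapped. Of the 4, 0 passed limma's test for a dye effect and 0 that for a difference between preparations, which 1 of 4892 features (0.0204%) passed. At an unadjusted p under 0.05 the dye effect held for 1 member, B2m, and for 12.9% of features, and the preparation difference for 0 members and for 6.75% of features.

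**Figure D3:**
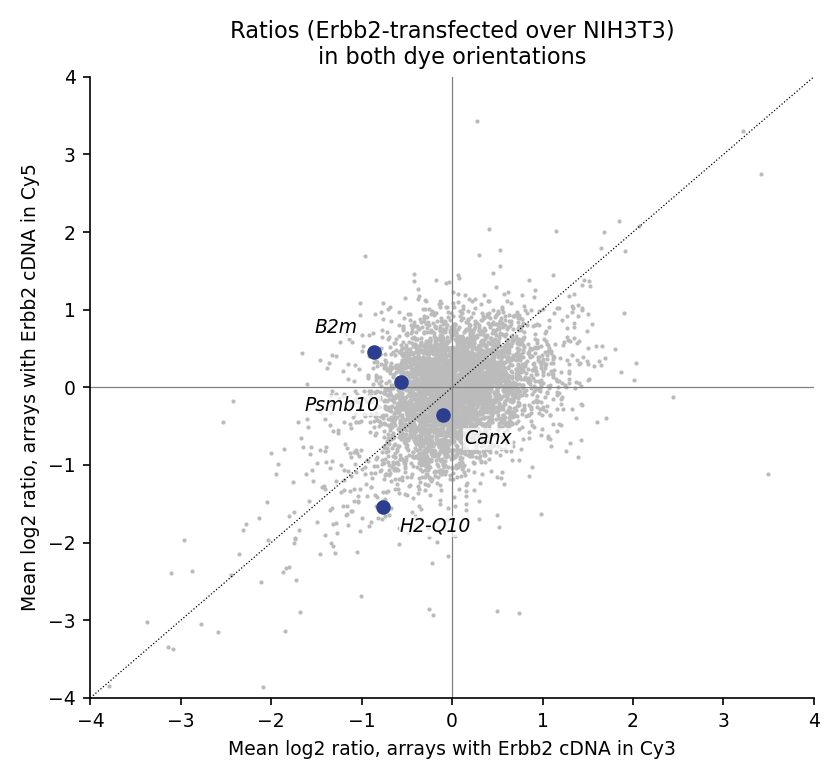
Mean log2 ratio of Erbb2-transfected over NIH3T3 cells with Erbb2 cDNA in Cy3 (horizontal axis) and in Cy5 (vertical axis). Grey points are 4882 of the tested features, 10 more lie outside the axes, and blue points are the 4 tested members; the dotted line marks equal means. B2m lies in the upper left, at -0.86 and 0.46, and H2-Q10 in the lower left, at -0.76 and -1.54.

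Signal also set how far single values can be read. A ratio that equals 1 whole number over another, each no larger than 300, can come from a dim spot. Such ratios made up 13 of the 44 member spots (29.5%) and 41.5% of all values. They included H2-Q10 on A1 and A3, Tap1 on B1, B2m on B2, Psmb10 on A2, H2-M3 on A2 and B2, Psme2 on A1 and A2, 3 of the 4 Psme1 spots and the only Psmb8 spot, but none of those of Calr and Canx. Without these spots H2-Q10 and B2m could not be tested, and 0 of the 2 members left, Psmb10 and Canx, were called.

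Other genes of the pathway were taken from lists. Of 30 further class I heavy chain and class I-like genes, 1 was measured: Fcgrt, the neonatal Fc receptor, had -0.88 on B1 and -0.49 on B2. Of 26 further genes of peptide trimming, transport and loading, 17 were measured and 4 tested, of which 0 passed in limma, and 0 at an unadjusted p under 0.05. Mogs, a glucosidase of glycoprotein folding, had 0.28, Sec63, of the translocon, had -0.20, and Sec61g, another translocon gene, had 0.05. Sec61g read 0.81 (A3) and 1.08 (B2) with Erbb2 cDNA in Cy5, and -0.10 (A1), -1.60 (A2) and -0.86 (B1) with it in Cy3, the same signs as B2m. Bcap31 and Sec61b, which were not tested, were below 0 on all of their 4 arrays, as were 12.2% of features with 4 values. Ganab and Pomp, also not tested, were above 0 on 3 of their 4 arrays, and Psme3 on both of its arrays.

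Of 14 constitutive core proteasome genes, some of which the inducible subunits replace, 9 were tested and 0 passed in limma. At an unadjusted p under 0.05 there were 2, and the share of all features at that cut was not counted. The median of the 9 was 0.09, and 1 of 9 had a mean below 0. Psma2, Psma6 and Psmb7, the subunit that Psmb10 replaces, had 0.54, 0.50 and 0.37. Psmb7 was above 0 on all 5 arrays, from 0.10 to 0.68, as were Psma2, Psma4 and Psma6. Of all features with 3 or more values, 14.3% were above 0 throughout. Psmb10 was below 0 on 4 arrays. Neither Psmb7 nor Psmb10 passed (limma, adjusted p = 0.311 and 0.564), and an exchange of subunits was not tested.

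Of 40 regulators of class I genes, 26 were measured and 9 tested. Of these 9, 3 had an unadjusted p under 0.05 in limma. Nr2f2 (COUP-TFII), a nuclear receptor known to bind class I enhancers, passed with -1.86 ± 0.30 (SD, n = 2; limma, adjusted p = 0.000334). Its A1 value of 0.11 stood against -2.98 to -1.17 on the other arrays. Ifnar2 and Jak1, a receptor chain and a kinase of interferon signalling, had -0.72 and -0.54 and did not pass (adjusted p = 0.0608 and 0.191). Both were below 0 on all 4 of their arrays. Irf8, an interferon regulatory factor, had -4.13 on A3, -0.75 on B1 and -2.35 on B2, and Irf1 had -0.26, -0.25 and -0.33 on A2, B1 and B2. Neither of these 2 was tested, and both are named here because of their values. Of features with 3 values, 16.7% were below 0 on all. On the other side of 0, Irf3 had 0.22 on A2 and 0.18 on B1, and Irf7 had 0.11 on B1. Relb was above 0 on all 3 of its arrays, and Socs1, which was tested, on 3 of 4. The median of the 9 tested regulators was -0.11, and 6 had a mean below 0.

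**Figure D4:**
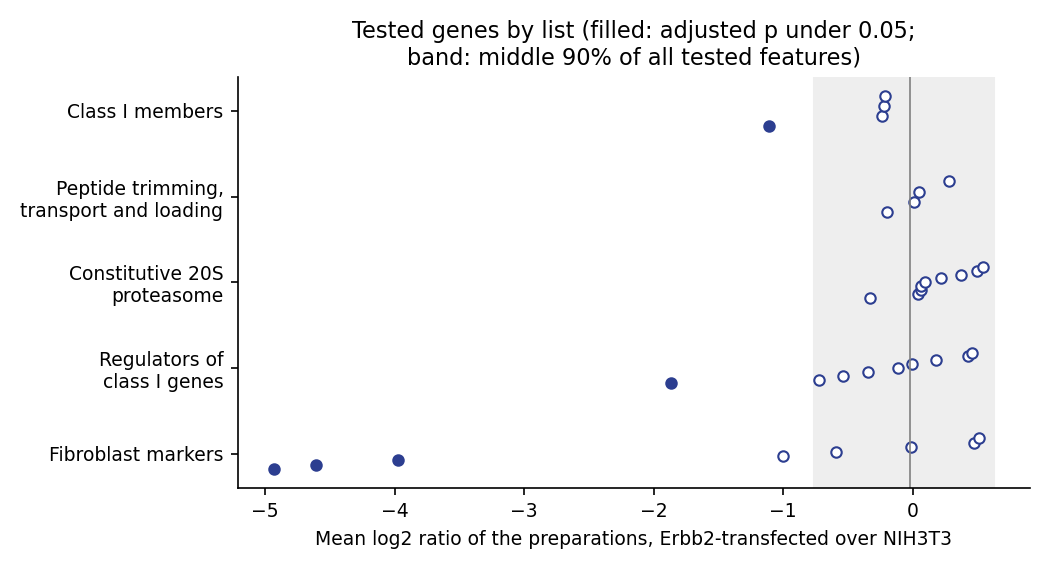
Mean log2 ratio of the preparations, Erbb2-transfected over NIH3T3 cells (horizontal axis), for each tested gene of 5 lists (rows). Filled points are genes called by limma (adjusted p under 0.05), open points are genes not called, the grey band spans the middle 90% of all tested features (-0.76 to 0.63) and the grey line is their median. H2-Q10, Nr2f2 and 3 fibroblast markers are the filled points.

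The cell type could be checked only as ratios. Of 20 fibroblast markers 8 were tested and 3 fell, Col1a1, Col1a2 and Fn1, at -4.93, -3.97 and -4.61, where 4.54% of all features were called lower. The median of the 8 was -0.80, and 6 had a mean below 0. The means of Vim and Col3a1, named because they lay on the other side of 0, were 0.47 and 0.51 and did not pass (limma, adjusted p = 0.218 and 0.331). Of 25 class II and leukocyte markers 13 were measured and 1 tested, Cd74, the class II invariant chain, which had 0.10 and did not pass. The median of the 13 was -0.04 on B1, the array that measured all of them. Of the epithelial and endothelial lists, 1 gene each was tested, Krt19 at 0.19 and Flt1 at 0.16, and neither passed. The part of other cell types in the class I values was not tested.

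Genes with array patterns most like those of the tested members were found by the root mean square difference over shared arrays, among 3133 genes. For H2-Q10 the nearest was Filip1l, at 0.08 over 5 arrays, with -0.90, -0.85, -1.03, -0.47 and -1.84 on A1, A2, A3, B1 and B2, followed by Tfe3 and Ier2 at 0.17 each. For B2m the nearest was Malat1, at 0.18 over 4 arrays, with 0.13 (A3), 0.67 (B2), -1.63 (A2) and -0.95 (B1), followed by Oma1 at 0.26 and Ak3 at 0.29. Zbtb7b, Ddx25 and Fgf18 were nearest to Psmb10 (0.03 to 0.10), and Dusp3, Ufsp2 and Cuedc1 to Canx (0.05 to 0.12).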

How the data were processed

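Each deposited value is the log2 ratio of both dyes at a spot. Per the labels, the authors scanned with a GenePix 4000A scanner, used GenePix Pro 3.0, subtracted background from mean spot intensities and scaled ratios to a median of 1. No source used here gives the rule for empty cells. The base is 2 as far as the values show: on A2, 58.8% of values match whole-number ratios (both numbers at most 300, tolerance 6e-07) on a log2 scale once an array constant is removed, against 1.82% with that constant shifted and 2.55% on a natural log scale. Arrays of opposite orientation correlated at -0.54 to -0.17 as deposited, so signs of A1, A2 and B1 were turned.

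Arrays held 5368 to 17463 values, and their number limits the precision. Of the probes, 11723 had 1 gene symbol, 806 several and 7676 none, and Entrez identifiers of 11590 matched a gene table of GRCm38.p6, changing 0 symbols. Probes of a gene were averaged. The means of the 2 preparations were compared with 0 in limma 3.58.1 (lmFit, eBayes; R 4.3.3), Benjamini-Hochberg adjusted over 4892 features; dye and preparation terms were tested on the 5 arrays. SDs are of the 2 preparation means and do not show the spread between dye orientations. The prior had 10.2 degrees of freedom against 1 residual. In 20 simulated draws 6.95% of calls were false on average (1.55% to 13.4%), against a nominal 5%. Figures used matplotlib 3.10.9.

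The members, lists, tests and alternatives were chosen with earlier results of these data known. Genes named are the members, list genes past the threshold, or up to the 3 largest tested values of a list where fewer than 3 passed, and the 3 genes nearest to each tested member. Further genes named were chosen after their values were seen. Alternatives covered replication, dye, missing values, scaling, probes, dim spots, variance, threshold and each array.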

Additional observations from a re-analysis of the deposited data

Results flagged for a closer look

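Among 33 named genes with 4 or 5 values, A2 lay far from the remaining arrays in 2; by chance alone about 5% of genes would show such a gap. Neither is a class I member, and 6 members were examined. Fn1, the fibronectin gene, read -4.01 there, and between -4.72 and -4.61 elsewhere (4 arrays). Flt1, an endothelial marker, read 0.53 there, and between 0.01 and 0.07 elsewhere (3 arrays).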

How the results depend on the processing

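The fall of H2-Q10 kept its direction under all 17 alternatives in which it had a value, from -1.47 to -0.75, and was called in 15 of them, with adjusted p between 0.000241 and 0.121. The exceptions were the fits without A3 and without B2. Some of the 17 could not move its mean, such as the median of its 1 probe, the robust variance estimate and the threshold of 0.1. Of the members that could be tested, 1 was called under each alternative except without B2 and with whole-number ratios left out, where 0 were. Without A3 the 1 called was Calr, whose mean is not balanced for dye. Over single arrays left out the count was 0 to 1. Psmb10 and Canx were not called under any of 18 alternatives. B2m was not called under any of 17 and ranged from -0.62 (without B2) to 0.19 (without B1). With Cy3 as the numerator B2m, Canx, H2-Q10 and Psmb10 would be at 0.21, 0.24, 1.11 and 0.22.

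The 332 calls over all features became 509 with the preparation as a random block, 136 with arrays scaled to equal spread, 193 after quantile normalization, 544 with probes as features, 564 with only probes measured in both orientations of both preparations, 191 without whole-number ratios (1294 features tested) and 548 at an adjusted p under 0.1. Leaving out 1 array gave 198 (B2), 211 (B1), 219 (A3), 263 (A2) and 498 (A1). Features with a dye effect, 7 in all, were 12 with probes as features and 2 to 31 with 1 array left out (31 without A1, 2 without A3 or B2), and those with a preparation difference 1 to 33 (25 without A1, 33 without A2). Sec61g, not called, turned to -0.13 with no dye term, -0.090 in the plain mean and -0.027 with scaled arrays, and ranged from -0.44 to 0.53 with 1 array left out. Cd74 ranged from -0.32 (without B1) to 0.52 (without B2). Ifnar2 passed in 6 of 15 alternatives, with adjusted p from 0.0106 to 0.305. For these changes the cause was not tested.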

Other observations

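Probes annotated with a member and a second gene were left out above because a value cannot be assigned to either gene. A probe for Phf20l1 and B2m read 2.01 (A2), 1.03 (B1) and 1.75 (B2), above 0 in both dye orientations, whereas the probe of B2m alone was below 0 on A2 and B1. A probe for Tap1 and Psmb9, neighbours on chromosome 17, read -1.30 (A2), 0.02 (A3), -0.18 (B1) and 0.85 (B2). On A3 and B2, where the probe of Tap1 alone had -1.52 and -1.25, the shared probe was above 0.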
